A study of Mus musculus with 4 samples.

Results

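The genes described are the interferon receptor subunits Ifnar1, Ifnar2, Ifngr1 and Ifngr2, the Janus kinases Jak1, Jak2 and Tyk2, and the transcription factors Stat2 and Stat3, in tumour, immune and stromal cells of mouse small cell lung cancer. They were taken by symbol, and these 9 genes of the 30406 identifiers shared by both annotations were present in all 4 matrices. CRPR2 and RPR2 were lung tumours of a model in which tumours start after gene deletion. In this field RPR2 stands for loss of Rb1, Trp53 and Rbl2, and the C of CRPR2 for loss of Cracd as well, although the labels spell out neither name. The allograft tumours grew from preSC, a mouse cell line known as precancerous precursor cells of small cell lung cancer, and their genotypes are labelled CracdKO and WT. The sources used here do not give strain, age, host, the driver of deletion, the number of clones or any pooling of animals. With 1 library in each group, the variation from animal to animal is unknown and no p-value was computed.

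Type I interferon binds a receptor made of Ifnar1 and Ifnar2, on which the kinases Tyk2 and Jak1 are held. They phosphorylate Stat factors, among them Stat2, which joins Irf9 in a complex that binds an element called ISRE in front of genes such as Isg15. Interferon gamma binds Ifngr1, paired with Ifngr2, and signals through Jak1 and Jak2 to Stat dimers that bind a GAS element. Stat3 is the main factor behind Il6-type cytokines, which signal through Il6st and Jak1. Loss of JAK1 or JAK2 is known in human tumours that no longer respond to interferon gamma, and small cell lung cancer is a neuroendocrine tumour known for low antigen presentation.

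RNA was counted as unique molecular identifiers (UMIs) with a 3′ droplet assay, in which each cell's transcripts carry a barcode. The libraries held between 9215 and 18559 barcodes, with median UMIs per barcode of 3300.5 in CRPR2, 2873 in RPR2, 5996 in the library labelled preSC_CracdKO and 4023 in that labelled preSC_WT. Between 36 and 79 barcodes were shared by any pair of libraries. After filters and clustering, tumour cells numbered 6599 in CRPR2, 3054 in RPR2, 13466 in preSC_CracdKO and 12703 in preSC_WT. Of 19 neuroendocrine markers, 18 or 19 stood at 10 or more CPM (UMIs of a gene per 1000000 UMIs of the summed cells) in the tumour cells of each library, with summed levels of 16930, 11870, 6380 and 10940 CPM in the same order. Cracd, listed as C530008M17Rik, stood at 23.7 CPM in CRPR2 tumour cells and 31.65 CPM in RPR2 tumour cells. In the allografts it went against the labels, with 84.4 CPM in the library labelled preSC_CracdKO and 6.49 CPM in that labelled preSC_WT, a ratio of 13 (11.9 to 14.25). Where the edit lies relative to the counted 3′ tag is not given, and a swap of labels or files was not tested and cannot be told from these data. The labels are kept as given, and every allograft direction below carries this limit. The lung ratio of Cracd, 0.747, was within 1.5-fold and does not check the lung labels either. CRPR2 and RPR2 also differed in sex-linked RNA, with Xist at 0.224 CPM in CRPR2 and 1574 CPM in RPR2 tumour cells and Y-linked Ddx3y at 53.8 CPM in CRPR2 and 0 in RPR2, so sex and genotype cannot be told apart in that pair.

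Of the 9 genes, Ifnar2, Ifnar1 and Ifngr2 lie close together on the plus strand of chromosome 16 of GRCm38, between 91372783 and 91565623. Ifngr1 lies on chromosome 10 (19591949 to 19610229), as does Stat2 (128270559 to 128292849). Jak1 lies on the minus strand of chromosome 4 (101152367 to 101265282), Jak2 on chromosome 19 (29251828 to 29313080), Tyk2 on chromosome 9 (21104068 to 21131243) and Stat3 on chromosome 11 (100885098 to 100939540). Promoters of 300 bases, from 250 before to 50 after the RefSeq start (GRCm38.p6), were matched for all 9. They were searched on both strands for the ISRE core GAAANNGAAA (TTTCNNTTTC on the other strand) and for the GAS element TTCNNNGAA, which do not share letters in any of the 9. The ISRE core was present in 3.44% and GAS in 8.30% of all 32851 promoters. Stat2 held 1 ISRE core, Ifnar1 and Ifnar2 held 1 GAS each, and the other 6 held neither. A match of letters is not a site in use. The promoter of Jak1 is shown because its level differed most between libraries, and the other 3 because they hold a motif, in capitals. The Jak1 promoter reads chr4:101265174-101265473 on the minus strand, Stat2 chr10:128270248-128270547, Ifnar1 chr16:91484965-91485264 and Ifnar2 chr16:91372533-91372832, these 3 on the plus strand.
Jak1: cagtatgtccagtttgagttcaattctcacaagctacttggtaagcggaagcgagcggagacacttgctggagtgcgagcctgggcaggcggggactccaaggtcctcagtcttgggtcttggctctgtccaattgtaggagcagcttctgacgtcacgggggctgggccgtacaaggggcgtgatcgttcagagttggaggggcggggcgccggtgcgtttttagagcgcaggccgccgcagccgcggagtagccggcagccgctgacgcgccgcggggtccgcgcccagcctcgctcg
Stat2: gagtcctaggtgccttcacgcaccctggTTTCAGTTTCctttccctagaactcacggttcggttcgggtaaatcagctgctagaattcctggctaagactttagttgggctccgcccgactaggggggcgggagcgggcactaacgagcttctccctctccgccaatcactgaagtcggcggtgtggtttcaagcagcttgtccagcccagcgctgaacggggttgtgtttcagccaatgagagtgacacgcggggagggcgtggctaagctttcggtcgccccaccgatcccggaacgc
Ifnar1: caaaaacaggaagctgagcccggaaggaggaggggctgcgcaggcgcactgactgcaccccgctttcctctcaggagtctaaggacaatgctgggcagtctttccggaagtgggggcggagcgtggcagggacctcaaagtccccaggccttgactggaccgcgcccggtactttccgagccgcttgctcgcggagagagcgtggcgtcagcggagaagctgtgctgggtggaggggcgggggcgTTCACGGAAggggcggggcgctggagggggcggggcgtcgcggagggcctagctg
Ifnar2: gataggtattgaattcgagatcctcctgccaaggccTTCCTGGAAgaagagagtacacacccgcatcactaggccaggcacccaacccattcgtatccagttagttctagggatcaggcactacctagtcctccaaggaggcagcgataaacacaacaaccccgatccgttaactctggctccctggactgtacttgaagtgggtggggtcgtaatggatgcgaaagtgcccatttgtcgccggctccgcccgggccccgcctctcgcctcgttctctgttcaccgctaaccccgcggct

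Receptor RNA was lower in tumour cells than in the immune cells of the same tumour, in all 4 libraries. Ifngr1, the ligand-binding chain of the gamma receptor, stood between 23.1 and 24.95 CPM in the tumour cells of every library. In immune cells it stood at 192 CPM in CRPR2, 294 in RPR2, 231 in preSC_CracdKO and 260.2 in preSC_WT. Ifngr1 was thus 8.28-, 12.6-, 9.24- and 11.03-fold lower in tumour than in immune cells, in that order. Its partner Ifngr2 was 2.845-fold lower in tumour than immune cells of CRPR2, 3.48-fold in RPR2, 4.19-fold in preSC_CracdKO and 6.29-fold in preSC_WT. Ifnar1 was 1.83-fold, 2.53-fold, 2.53-fold and 3.12-fold lower in the same order. Ifnar2 was 1.98- and 1.94-fold lower in the lung tumour cells of CRPR2 and RPR2, and 4.53- and 9.64-fold lower in the allograft tumour cells of preSC_CracdKO and preSC_WT. Each of the 4 receptor genes was therefore lower in tumour than immune cells in each of the 4 libraries. These are sums over all immune cells. Plasma-like cells of CRPR2 held 12.2 CPM of Ifngr1, 5.44 of Ifngr2 and 14.3 of Ifnar1, below its tumour cells, but 56.4 of Ifnar2, above them. Club-like airway cells held Ifnar1 near the tumour level, at 22.9 CPM in CRPR2 and 23.9 CPM in RPR2, and more of the other receptor genes.

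A gene was counted as higher or lower where its CPM differed 1.5-fold or more, with at least 10 CPM and 20 UMIs in the higher class. By this rule 6 of 9 members were lower in tumour than immune cells of CRPR2, against a background of 14.0% of all genes that passed. The count was 5 of 8 in RPR2 (background 16.7%), 7 of 7 in preSC_CracdKO (16.5%) and 8 of 9 in preSC_WT (17.7%). Against stromal cells, 7 of 8 members were lower in CRPR2 (20.2%), 4 of 6 in RPR2 (14.0%), 5 of 6 in preSC_CracdKO (16.4%) and 7 of 9 in preSC_WT (23.2%). Stromal cells numbered only 47 in RPR2 and 49 in preSC_CracdKO. Stat3 went the other way in the lung tumours and was higher in tumour than immune cells, at 113 against 69.6 CPM in CRPR2 and 123.5 against 67.2 CPM in RPR2, where 64.4% and 47.3% of all genes were higher in tumour cells. Jak2 and Stat2 were within 1.5-fold of immune cells in both lung tumours. Neuroendocrine markers summed to between 337 and 3319 CPM in immune cells, so RNA of tumour cells was also counted there, and its part in these ratios was not tested.

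**Figure D1:**
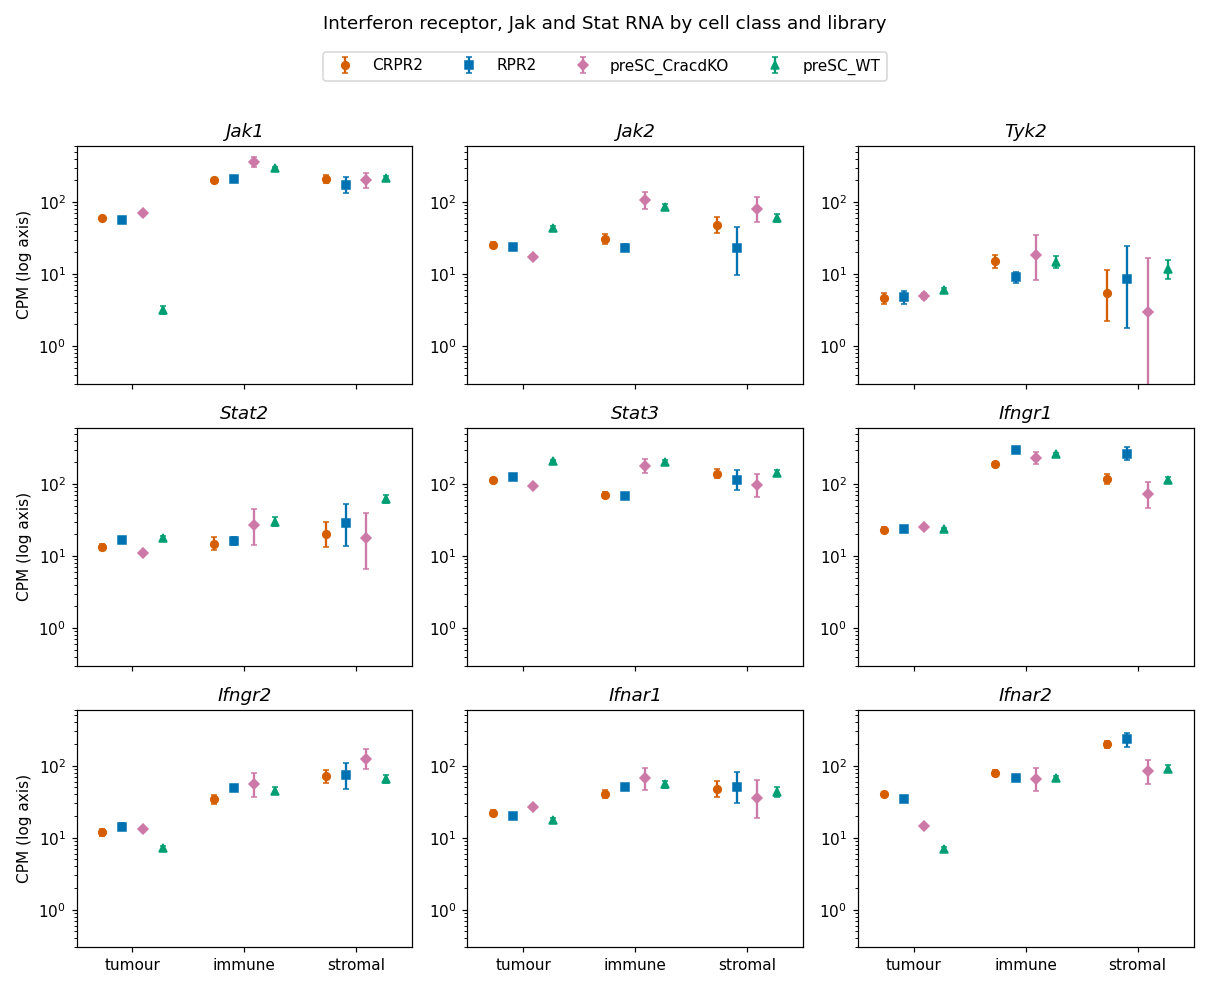
CPM (log axis) of the 9 genes in tumour, immune and stromal cells of CRPR2, RPR2, preSC_CracdKO and preSC_WT. Points are sums over all cells of a class in 1 library and bars are 95% Poisson intervals for counting error. The receptor genes sit lowest in tumour cells, and Jak1 in preSC_WT tumour cells stands apart at 3.16 CPM.

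Among classes with 50 or more cells, each gene had its own order. Ifngr1 was highest in T-cell-like cells of CRPR2 (418 CPM), preSC_CracdKO (568) and preSC_WT (445), and in monocyte-like cells of RPR2 (364). The counting intervals of NK-like cells of CRPR2 (415.5 CPM) and T-cell-like cells of RPR2 (339 CPM) overlapped those of the class above them. Ifngr2 was highest in monocyte-like cells of both lung tumours, at 86.4 CPM in CRPR2 and 95.1 in RPR2, and in pericyte-like cells of preSC_WT at 126 CPM. In CRPR2 its interval overlapped that of the next class. T-cell-like cells, first for Ifngr1 in CRPR2 and preSC_WT, held 31.3 and 28.4 CPM of Ifngr2 there, whereas monocyte-like cells of RPR2 were first for both chains. Ifnar2 was highest in fibroblast-like cells of CRPR2 (199.5 CPM), monocyte-like cells of RPR2 (189) and macrophage-like cells of preSC_WT (133). In each case the interval overlapped that of the next class, which in RPR2 was macrophage-like cells at 188.8 CPM. In tumour cells of preSC_WT Ifnar2 stood at 6.93 CPM, the lowest of the 8 classes there, with an interval that overlapped that of mast-like cells (3 UMIs). Ifnar1 was highest in neutrophil-like cells of CRPR2 (114 CPM, 12 UMIs), monocyte-like cells of RPR2 (79.7 CPM) and macrophage-like cells of preSC_WT (66.8 CPM), in each case with an interval that overlapped the next class.

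Jak1, which serves both interferon receptors, was highest in lymphoid cells. It stood at 670 CPM in NK-like and 341 CPM in T-cell-like cells of CRPR2, at 259.8 CPM in B-cell-like cells of RPR2, and at 768 and 445 CPM in T-cell-like cells of preSC_CracdKO and preSC_WT. Jak2, the second kinase of the gamma receptor, was highest in neutrophil-like cells where 50 or more were present, at 95.2 CPM in CRPR2 (10 UMIs) and 236 CPM in preSC_CracdKO (31 UMIs). Tyk2, the kinase held on Ifnar1, stood between 4.603 and 5.93 CPM in the tumour cells of every library. Its highest levels were 53.8 CPM in NK-like cells of CRPR2 and 36.0 CPM in monocyte-like cells of RPR2. Stat2 was highest in monocyte-like cells of the lung tumours (39.7 CPM in CRPR2, 34.7 in RPR2) and in fibroblast-like cells of preSC_WT (76.3 CPM). Stat3 was highest in neutrophil-like cells of CRPR2 (190.4 CPM) and preSC_CracdKO (275 CPM). Intervals of the first class overlapped the next for Jak1 in RPR2, Jak2 in CRPR2, and Tyk2 and Stat2 in both lung tumours. They also overlapped for Stat3 in CRPR2 and preSC_CracdKO, so these classes are not told apart. Plasma-like cells of the lung held the lowest Jak1, Stat3 and Ifngr1, with Jak1 at 27.9 CPM in CRPR2 and 32.3 CPM in RPR2. For Ifngr1 in RPR2 their interval overlapped that of tumour cells.

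Lung tumour cells of CRPR2 and RPR2 differed by less than 1.5-fold for all 8 members that passed the level minimum. Jak1 stood at 59.6 CPM in CRPR2 and 56.3 CPM in RPR2, a ratio of 1.06 (0.983 to 1.14). Jak2 stood at 25.7 and 23.8 CPM, and Stat3 at 113 and 123.5 CPM, in CRPR2 and RPR2. For the receptors, Ifngr1 stood at 23.1 CPM in CRPR2 and 23.3 CPM in RPR2, Ifnar1 at 22.2 and 20.4 CPM, and Ifnar2 at 40.4 and 34.65 CPM. The largest distances from 1 were Stat2, at 13.4 CPM in CRPR2 and 16.65 CPM in RPR2 with a ratio of 0.802 (0.692 to 0.930), and Ifngr2, at 12.0 and 14.2 CPM with a ratio of 0.844 (0.720 to 0.989). Tyk2, below the minimum, stood at 4.603 CPM in CRPR2 and 4.745 CPM in RPR2. The count of 0 of 8 stands against 5.48% of 9563 genes past the same fold, and the median log2 ratio was 0.04 over these members and -0.03 over all genes. Intervals here and below are 95% and cover counting error only, and without replicates a ratio near 1 does not show that the tumours are alike.

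Lung tumour cells of 1 cluster with interferon-induced genes among its leading genes, cluster 18, allowed the members to be read where the pathway's targets are high. It held 51 cells of CRPR2 and 155 of RPR2, and 7 type I targets summed to 3367 CPM in CRPR2 and 2655 CPM in RPR2, against 72.6 to 221 CPM and 96.3 to 515 CPM in the other tumour clusters with 50 or more cells. Stat2, itself an interferon-induced gene, had its highest CPM there in both libraries, at 35.7 CPM in CRPR2 (10 UMIs) and 29.5 CPM in RPR2 (37 UMIs), against 10.1 to 20.0 CPM and 3.85 to 24.8 CPM in the other clusters. Its counting intervals, 17.1 to 65.7 CPM in CRPR2 and 20.75 to 40.6 CPM in RPR2, overlapped those of the next cluster. The latter ran from 14.3 to 27.2 CPM and from 20.15 to 30.2 CPM, so these clusters are not told apart. In CRPR2, Jak1 (82.2 CPM) and Ifngr2 (25.02 CPM, 7 UMIs) were also highest there, again with intervals that overlapped the next cluster. In RPR2 they were not highest there, at 48.6 and 8.76 CPM. Ifngr1 stood at 14.3 CPM in both (4 and 18 UMIs), against 23.1 and 23.3 CPM over all tumour cells of CRPR2 and RPR2, with overlapping intervals. The clusters were built from all variable genes, so these values are a description. Over all lung tumour clusters, Ifngr2 ranged from 3.94 to 25.02 CPM in CRPR2 and from 8.76 to 22.2 CPM in RPR2, and Stat3 from 70.1 to 135 CPM and from 50.1 to 171 CPM.

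In immune cells of the lung tumours, Ifngr1 stood at 192 CPM in CRPR2 and 294 CPM in RPR2, 1.53-fold lower in CRPR2 (1.44 to 1.64). Tyk2 stood at 15.0 CPM in CRPR2 and 9.03 CPM in RPR2, 1.66-fold higher in CRPR2 (1.26 to 2.18). The other 7 members, among them Jak1 at 200.6 and 210.6 CPM, were within 1.5-fold. A count of 2 of 9 stands beside a background of 52.7%, and the median log2 ratio was -0.07 over the members and -0.41 over all genes. With libraries scaled by the median ratio of genes, which was -0.375 on the log2 scale, 3 members were higher in CRPR2 and 0 lower. T-cell-like cells made up 884 of 2397 immune cells in CRPR2 and 4702 of 5486 in RPR2, and with each immune class given the same weight neither member passed, at log2 ratios of 0.06 for Ifngr1 and -0.16 for Tyk2.

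Within T-cell-like cells, 3 members were higher and 1 lower in CRPR2. Jak1 stood at 341 CPM in CRPR2 and 226 CPM in RPR2 (ratio 1.51, 1.38 to 1.65), Jak2 at 36.4 and 23.1 CPM (1.58, 1.18 to 2.07) and Tyk2 at 14.0 and 6.79 CPM (2.06, 1.26 to 3.27). Ifngr2 stood at 31.3 CPM in CRPR2 and 51.2 CPM in RPR2, 1.64-fold lower in CRPR2 (1.24 to 2.19). The count of 4 of 9 stands beside a background of 53.9% (11.7% higher and 42.2% lower), with a median log2 ratio of 0.30 over members and -0.45 over all genes. With median-ratio scaling, which moved log2 ratios by 0.369, 5 members were higher in CRPR2 and 0 lower: Stat3 (log2 ratio 0.77) and Ifngr1 (0.67) joined the higher ones and Ifngr2 (-0.34) was no longer called. Different clusters held these cells: 882 of the 884 cells of CRPR2 lay in cluster 13, while RPR2 had 597 there, 711 in cluster 8 and 2708, 596 and 90 in clusters 7, 15 and 16. In those last 3, Rag1, Dntt or Ptcra, genes of developing T cells, were detected in 88.8% to 96.1% of cells. In RPR2, Ifngr1 stood at 556 CPM in cluster 7, 413 in cluster 16, 272 in cluster 13, 232 in cluster 15 and 174 in cluster 8. Cluster 8, with Lef1 and Ccr7 among its leading genes, held the highest Ifngr2 (147 CPM) and Jak1 (444 CPM), and cluster 15 the lowest Jak1 (67.6 CPM). Cluster 8 was thus highest for one chain of the gamma receptor and lowest for the other.

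**Figure D2:**
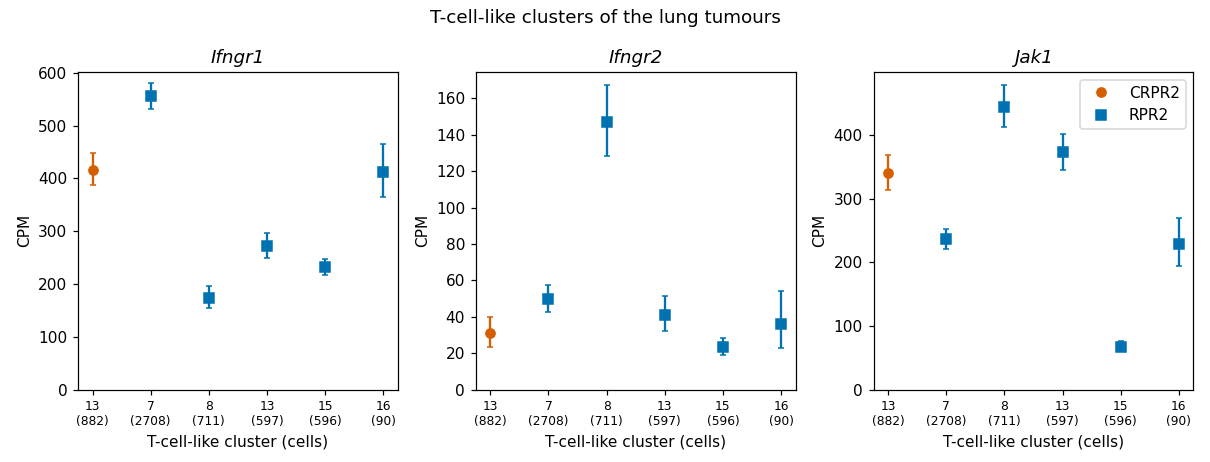
CPM of Ifngr1, Ifngr2 and Jak1 in T-cell-like clusters of the lung tumours with 50 or more cells of a library, with 95% Poisson intervals; cell numbers stand under the cluster numbers. CRPR2 is held by cluster 13, whereas RPR2 spans 5 clusters, and cluster 8 stands highest for Ifngr2 at 147 CPM and lowest for Ifngr1 at 174 CPM.

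Compared within cluster 13 alone, Ifngr1 stood at 416 CPM in CRPR2 and 272 CPM in RPR2, a ratio of 1.53 (1.36 to 1.72). It was then the only member called, against a background of 15.6%. Ifngr2 stood at 30.8 and 41.0 CPM (ratio 0.752, 0.521 to 1.08), and Jak1 at 341 and 373 CPM in CRPR2 and RPR2. Ifng, the ligand itself, stood at 89.1 CPM in CRPR2 and 184 CPM in RPR2 in these cells, 2.06-fold lower in CRPR2. Its direction depended on the cells compared, and over all T-cell-like cells Ifng was called higher in CRPR2, at a log2 ratio of 1.52. With clusters 7, 15 and 16 left out, Ifngr1 was 1.84-fold higher in CRPR2 (418 and 227 CPM) and Ifngr2 2.86-fold lower (31.3 and 89.6 CPM), beside a background of 28.3%. Ifng was then within 1.5-fold, at 89.0 CPM in CRPR2 and 99.8 CPM in RPR2. These subsets were set after the clusters had been seen.

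Other lung classes had few calls. Club-like airway cells (1170 in CRPR2, 281 in RPR2) had Stat2 at 13.1 CPM in CRPR2 and 22.5 CPM in RPR2, 1.72-fold lower in CRPR2 (1.23 to 2.38), the 1 call of 8 members beside a background of 13.2%. B-cell-like cells had Ifnar1 at 38.0 CPM in CRPR2 and 70.25 CPM in RPR2, 1.85-fold lower (1.26 to 2.75), the 1 call of 7 (17.2%). Monocyte-like cells also had lower Ifnar1 in CRPR2, at 50.1 CPM against 79.7 CPM in RPR2 (1.59-fold, 1.01 to 2.57), and Jak2 at 65.6 and 39.85 CPM, 2 calls of 9 (24.1%). In stromal cells Ifngr1 stood at 118 CPM in the 155 cells of CRPR2 and 264 CPM in the 47 cells of RPR2, 2.24-fold lower in CRPR2 (1.71 to 2.93). Stromal Jak2 stood at 48.7 CPM in CRPR2 and 22.7 CPM in RPR2, where it rested on 8 UMIs, and together these were 2 calls of 6 (36.9%). Macrophage-like cells had 1 call of 5 (Ifngr2, 28.8%) and plasma-like cells 1 of 5 (Ifngr1, 33.2%), both with intervals of the ratio that span 1, and with median-ratio scaling the plasma-like call was lost.

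Jak1 set the allograft tumour cells apart. It stood at 70.3 CPM (6138 UMIs) in the library labelled preSC_CracdKO and at 3.16 CPM (248 UMIs) in that labelled preSC_WT, a ratio of 22.2 (19.6 to 25.3). Of 10231 genes that passed the minimum, 162 (1.58%) had a ratio at least as large. The level in preSC_CracdKO tumour cells was near that of the lung tumour cells, 59.6 CPM in CRPR2 and 56.3 CPM in RPR2, and that in preSC_WT tumour cells stood below all 3. Immune cells of preSC_WT held 296 CPM of Jak1 and stromal cells 217 CPM, so Jak1 RNA was counted in the other cells of that library. Tumour cells held 19.5% of the immune level in preSC_CracdKO and 1.07% in preSC_WT, beside 29.7% in CRPR2 and 26.7% in RPR2. Markers of 6 other cell types in preSC_WT tumour cells summed to between 0.0946% and 0.472% of the level in their own class; the share of the 248 UMIs that came from such RNA was not tested.

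The low level held in every large tumour cluster of the library labelled preSC_WT. Clusters 3, 6, 8, 9 and 21 of the library labelled preSC_CracdKO ranged from 51.6 to 79.8 CPM of Jak1, and clusters 0, 1, 2, 12 and 17 of that labelled preSC_WT from 0.841 to 4.91 CPM, with no overlap. Clusters 6 and 9 also held 56 and 84 preSC_WT cells, at 13.2 CPM (1 UMI) and 22.35 CPM (3 UMIs). Each cluster came almost wholly from 1 library, so clusters are not replicates. The share of all genes split in this way was not computed. The 2 libraries shared almost no tumour cluster. Only 209 preSC_WT tumour cells lay in clusters held by preSC_CracdKO, with a median of 1312 UMIs, and 1 of them had a barcode that the other library also listed. They held 37.5 CPM of Jak1 (17 UMIs, 21.8 to 60.0) and 68.3 CPM of Cracd, against 2.96 CPM and 6.13 CPM in the other 12494. With clusters that held 20 or more cells of both libraries weighted alike, preSC_WT was represented by some of these 209 cells alone and the Jak1 ratio was 2.00, with a log2 ratio of 1.00 in place of 4.47. Cluster 17, with 544 cells of preSC_WT, had the lowest Jak1 (3 UMIs) but held Cracd at 64.2 CPM, so low Jak1 and low Cracd did not go together in every cluster.

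**Figure D3:**
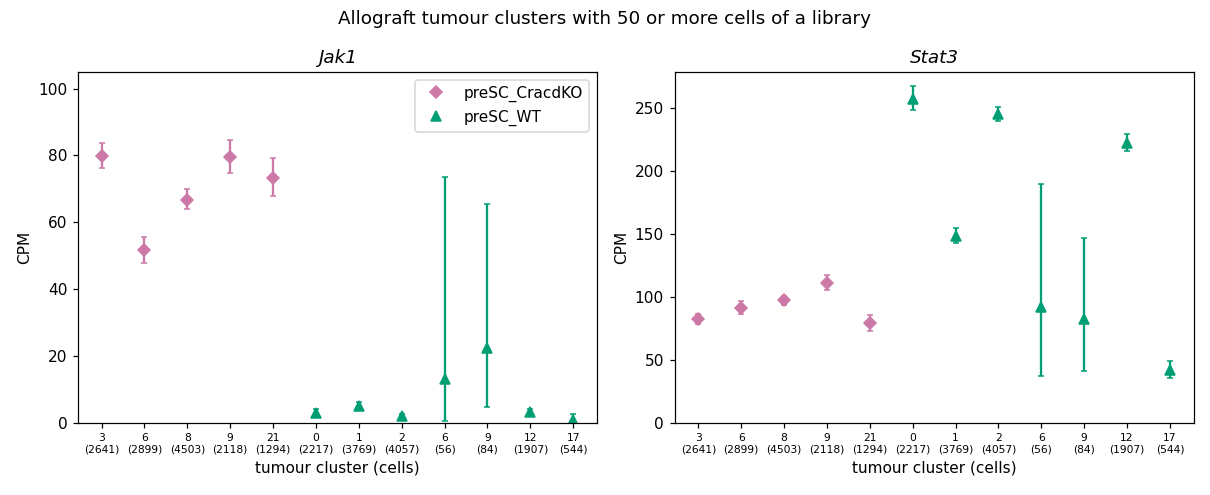
CPM of Jak1 (left) and Stat3 (right) in allograft tumour clusters with 50 or more cells of a library, with 95% Poisson intervals; cell numbers stand in parentheses. Jak1 lies at 51.6 CPM or more in the clusters of preSC_CracdKO and at 4.91 CPM or less in the 5 large clusters of preSC_WT.

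The genes around Jak1 were then read, a choice made after its level had been seen. Of 15 other genes with a start or body within 1 Mb, 5 passed the level minimum in allograft tumour cells. In the library labelled preSC_CracdKO 1 of them was higher, 2 were lower and 2 were within 1.5-fold. This stands beside 43.0% of all genes past the fold (16.1% higher and 26.9% lower). Ak4, an adenylate kinase, stood at 31.1 CPM in preSC_CracdKO and 7.33 CPM in preSC_WT, and Dnajc6, the clathrin-uncoating protein auxilin, at 50 and 115 CPM. Leprot stood at 45.9 and 38.5 CPM and Cachd1 at 21.0 and 14.6 CPM, in preSC_CracdKO and preSC_WT. Raver2, whose end meets the end of Jak1 on the other strand, fell under the minimum and had 578 UMIs (6.62 CPM) in preSC_CracdKO and 2 UMIs (0.0255 CPM) in preSC_WT tumour cells. In lung tumour cells, where Jak1 was present, Raver2 had 0 UMIs in CRPR2 and 2 UMIs in RPR2. Farther out, Ror1 stood at 3.62 CPM in preSC_CracdKO and 27.1 CPM in preSC_WT. Ube2u, Lepr and Pde4b fell under the minimum, as Raver2 did. They stood at 1.87, 1.23 and 4.84 CPM in preSC_CracdKO and at 0.306, 0.268 and 1.42 CPM in preSC_WT.

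**Figure D4:**
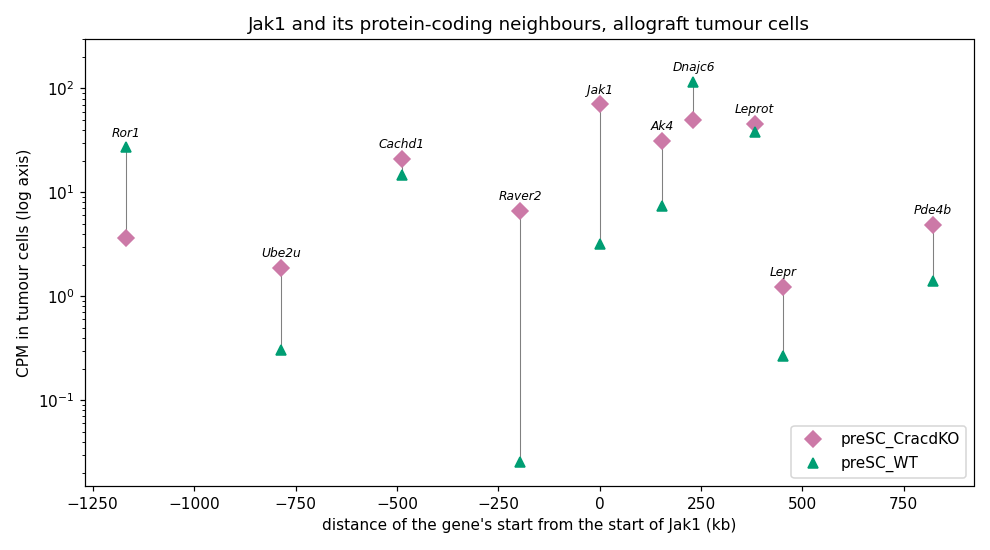
CPM (log axis) in allograft tumour cells of Jak1 and the neighbouring genes with 20 or more UMIs, against the distance of each start from the start of Jak1 in kb. Jak1, Raver2, Ak4, Ube2u, Lepr and Pde4b lie higher in preSC_CracdKO, Dnajc6 and Ror1 higher in preSC_WT, and Leprot and Cachd1 differ less than 1.5-fold. Raver2, Ube2u, Lepr and Pde4b fall under the level minimum.

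Of the other gamma pathway members in allograft tumour cells, Ifngr2 was higher in the library labelled preSC_CracdKO, as Jak1 was, Jak2 was lower and Ifngr1 was within 1.5-fold. Jak2 stood at 17.2 CPM in preSC_CracdKO and 44.4 CPM in preSC_WT, 2.58-fold lower (2.43 to 2.74) where Jak1 was higher. Stat3 stood at 92.9 CPM in preSC_CracdKO and 211 CPM in preSC_WT, 2.27-fold lower (2.21 to 2.33), and Stat2 at 10.9 and 17.9 CPM, 1.64-fold lower (1.51 to 1.79). Ifngr1 was within 1.5-fold, at 24.95 CPM in preSC_CracdKO and 23.6 CPM in preSC_WT (ratio 1.06, 0.994 to 1.13). The other receptor chains were higher in preSC_CracdKO, with Ifnar2 at 14.4 and 6.93 CPM (2.08, 1.88 to 2.31), Ifngr2 at 13.1 and 7.13 CPM (1.84, 1.67 to 2.04) and Ifnar1 at 26.6 and 17.7 CPM (1.51, 1.41 to 1.61). Tyk2, at 5.01 and 5.93 CPM, was below the minimum. In all 7 of 8 members passed the fold, 4 higher and 3 lower, beside a background of 43.0% (16.1% higher and 26.9% lower), with a median log2 ratio of 0.34 over members and -0.15 over all genes. Stat3 was not uniform within preSC_WT, at 258 CPM in cluster 0, 149 CPM in cluster 1 and 41.8 CPM in cluster 17. In the 209 preSC_WT cells that lay in preSC_CracdKO clusters, Stat3 stood at 104 CPM and Jak2 at 19.8 CPM, and with shared clusters weighted alike neither was called, at log2 ratios of -0.048 and -0.39. Ifnar1 lay near the fold, and with 1 CPM added, with doublets kept or at a lower clustering resolution 3 members were higher. The tumour cells compared also changed. With doublets kept a cluster of 4485 preSC_WT cells took no name and was left out, and at the lower resolution a cluster of 4092.

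**Figure D5:**
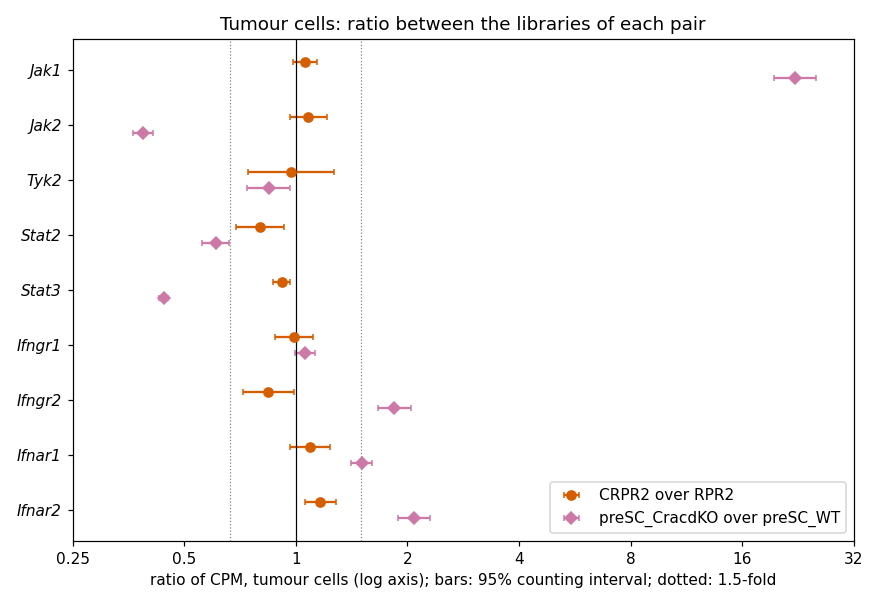
Ratios of CPM in tumour cells, CRPR2 over RPR2 and preSC_CracdKO over preSC_WT, on a log axis with 95% counting intervals; dotted lines mark 1.5-fold. All lung ratios lie between 0.802 and 1.165, whereas allograft ratios run from 0.388 for Jak2 to 22.2 for Jak1.

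Non-tumour cells of the allografts were few in the library labelled preSC_CracdKO, with 282 immune cells against 3575 in preSC_WT. In immune cells 0 of 8 members passed the fold, beside a background of 41.4%. Jak1 stood at 361 CPM in preSC_CracdKO and 296 CPM in preSC_WT (ratio 1.22, 1.04 to 1.42), Ifngr1 at 231 and 260.2 CPM, and Stat3 at 178 and 204 CPM. The classes differed too, since neutrophil-like cells numbered 69 in preSC_CracdKO and 5 in preSC_WT. Within T-cell-like cells (71 and 1698) Jak1 stood at 768 CPM in preSC_CracdKO and 445 CPM in preSC_WT (1.73, 1.345 to 2.185), and 3 of 7 members passed beside a background of 70.7%, the lower ones, Jak2 and Tyk2, on 6 and 0 UMIs in preSC_CracdKO. In B-cell-like cells (101 and 1096) Jak1 was also higher, at 373 and 240 CPM (1.56, 1.09 to 2.16), 1 of 3 calls among 4 members (62.5%), while Jak2 and Stat3 were lower with intervals that span 1. The Jak1 call in B-cell-like cells, at a log2 ratio of 0.64, was lost with median-ratio scaling (0.56), means of per-cell CPM (0.15) or doublets kept (0.24), and Jak2 in T-cell-like cells lost its call with scaling (-0.415 in place of -0.61). Each of these classes gave a median log2 ratio over all genes below -0.5, at -0.67 in T-cell-like and -0.58 in B-cell-like cells.

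Stromal cells of the allografts numbered 49 in preSC_CracdKO and 881 in preSC_WT, and 4 of 9 members passed the fold beside a background of 48.3%. Ifngr2 stood at 126 CPM in preSC_CracdKO and 66.2 CPM in preSC_WT (1.91, 1.34 to 2.65). Stat2 stood at 18.02 CPM in preSC_CracdKO (6 UMIs) and 62.4 CPM in preSC_WT, 3.46-fold lower (1.57 to 9.52), and Ifngr1 at 72.1 and 112 CPM, 1.55-fold lower (1.03 to 2.45). Tyk2 was called lower on 1 UMI in preSC_CracdKO. Here too the minimum of 20 UMIs was easier to reach for genes higher in preSC_WT. Fibroblast-like cells, which hold the highest Stat2 of preSC_WT, made up 8 of the 49 cells in preSC_CracdKO and 460 of the 881 in preSC_WT. Pericyte-like cells, which hold the highest Ifngr2, made up 24 and 171 of them, and the part of this makeup in the Stat2 and Ifngr2 ratios was not tested.

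The rest of the pathway was read from gene lists for ligands, other receptors, inhibitors and targets. In lung tumour cells, where 2.88% of all genes were lower in CRPR2, 5 of 6 type I targets that passed were lower (median log2 ratio -1.14, against -0.03 over all genes), namely Isg15 (35.8 CPM in CRPR2, 110.2 CPM in RPR2), Rsad2 (30.5 and 107 CPM), Rtp4, Irf7 and Oasl2. Cluster 18, where these targets were high, made up 51 of 6599 tumour cells in CRPR2 and 155 of 3054 in RPR2. The part of this makeup in the ratios was not tested. Of 10 inhibitors 2 were lower, Socs2 at 37.65 CPM in CRPR2 and 78.5 CPM in RPR2 and Usp18, an interferon-induced brake on Ifnar2, at 21.4 and 40.6 CPM. Il6ra, the Il6 receptor, was the 1 of 4 other receptors called, at 37.9 CPM in CRPR2 and 25.03 CPM in RPR2, all 4 Stat3 targets were within 1.5-fold, and Igtp was the 1 of 2 gamma targets called, lower at 7.185 and 12.85 CPM. Club-like cells had 6 of 7 type I targets lower in CRPR2, beside 10.7% of all genes (median -0.98, against -0.16 over all genes), the class in which Stat2 was lower as well. T-cell-like cells had 4 of 6 other receptors higher in CRPR2, beside 11.7% of all genes, among them Il2rg, the chain shared by Il2-type receptors, at 218 CPM in CRPR2 and 141.5 CPM in RPR2, and Il10rb at 30.8 and 8.99 CPM. Il6st was lower, beside 42.2% of all genes. In these cells 2 of 5 type I targets and 2 of 4 gamma targets were higher in CRPR2, and 0 were lower (medians 0.56 and 0.70, against -0.45 over all genes). Most of these RPR2 cells lay in clusters 7, 15 and 16, which held no cells of CRPR2, and the receptors and gamma targets were not compared without them. Within cluster 13, the 7 type I targets summed to 134 CPM in CRPR2 and 249 CPM in RPR2, so their direction depended on the cells compared. No ligand of the list passed the minimum in tumour cells of either pair.

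In allograft tumour cells no gene of these lists that passed was higher in the library labelled preSC_CracdKO, where 16.1% of all genes were higher and 26.9% lower. Of 10 inhibitors 5 were lower (median log2 ratio -0.51, against -0.15 over all genes), among them Pias1, at 46.9 CPM in preSC_CracdKO and 77.5 CPM in preSC_WT, Socs3, at 15.1 and 39.2 CPM, and the phosphatase Ptpn6 at 1.11 and 11.1 CPM. Of 4 Stat3 targets 3 were lower, Junb at 29.3 CPM in preSC_CracdKO and 953 CPM in preSC_WT, Myc at 2.69 and 20.3 CPM, and Pim1 at 28.9 and 48.65 CPM. Junb and Myc are also immediate early genes, which respond to many stimuli. Il6ra stood at 0.217 CPM in preSC_CracdKO and 10.25 CPM in preSC_WT, and 3 of 4 other receptors were lower. Rsad2 and Irf1, the only interferon targets of either list that passed, stood at 12.3 and 31.9 CPM and at 12.05 and 30.4 CPM, in preSC_CracdKO and preSC_WT.

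Interferon targets were also lower around the tumour cells of the library labelled preSC_CracdKO. In its stromal cells, where 34.4% of all genes were lower, 6 of 6 type I targets that passed were lower (median log2 ratio -2.72, against -0.25 over all genes), for example Isg15 at 51.1 CPM in preSC_CracdKO and 317 CPM in preSC_WT, and 5 of 5 gamma targets (median -1.80), for example Iigp1 at 54.1 and 261.5 CPM. In immune cells, where 31.5% of all genes were lower, 4 of 7 type I targets (median -1.57) and 5 of 5 gamma targets (median -1.88) were lower, against -0.26 over all genes. All 4 ligands that passed were lower there too, with Ifng at 8.16 CPM (4 UMIs) in preSC_CracdKO and 126 CPM in preSC_WT. T-cell-like cells made up 71 of the 282 immune cells in preSC_CracdKO and 1698 of the 3575 in preSC_WT, and Ifng within them stood at 42.1 and 283 CPM. Summed UMIs in preSC_CracdKO and preSC_WT were 490000 and 6756690 in immune and 332890 and 3881468 in stromal cells. The minimum of 20 UMIs was thus easier to reach for genes higher in preSC_WT, so these counts and medians lean towards lower values in preSC_CracdKO.

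Genes with the most similar pattern were sought over 29 sums, each a class of 50 or more cells in 1 library, among 12408 genes by Pearson's correlation of log2(CPM + 1). Sums of 1 library share its chemistry and depth, so these values only describe. Jak1 was most like Wipf1 (0.88) and Cd82 (0.80), Jak2 like Gfod1 (0.85) and Kpna4 (0.84), and Tyk2 like Ccdc97 (0.75) and Map3k8 (0.73). Stat2 was most like Rnf213 (0.85) and Pnp (0.78), and Stat3 like Crebbp (0.89) and Nptn (0.88). Ifngr1 was most like Orai1 (0.85) and Frmd8 (0.84), whereas its partner Ifngr2 was most like Fhod1 (0.80) and Stat6 (0.78). Ifnar1 was most like Trim21 (0.80) and Sh3bp5 (0.77), and Ifnar2 like S100a11 (0.83) and Mvp (0.82). Among the members themselves, Jak2 and Stat3 were alike at 0.83.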

How the data were processed

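The deposited matrices are raw UMI counts, 1 whole number for each gene in each barcode, without normalization. Per the file headers, Cell Ranger 6.1.2 wrote the lung matrices and 5.0.0 the allograft ones. Cell Ranger 6.1.2, mm10, Seurat 1.8.2 and Scanpy 1.8.2 are named in the submitters' processing notes. Members and gene lists were chosen with earlier results of these data known.

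Barcodes needed at least 300 genes, with no more than 15% of UMIs from mitochondrial genes, and doublets were removed with Scrublet (scanpy 1.11.5). Its automatic threshold marked 2.84% of RPR2 and 1.93% of preSC_WT cells; in CRPR2 and preSC_CracdKO it marked under 0.5%, so the highest scores were removed at 0.8% per 1000 cells (9.57% and 12.9%). Total UMIs per library ranged from 42592323 to 110576113. Each pair was clustered on 2000 variable genes, 50 components, 15 neighbours and Leiden resolution 1.0 (igraph 0.11.9), without batch integration. Clusters were named "-like" from listed markers by a score (log2 against the median cluster, at least 2, for tumour 0.5, with 3 or more markers). That rule was revised after the clusters were seen: a cluster refused one name could take the next. Unnamed were 1 lung cluster (496 cells of CRPR2, 1 of RPR2) and 3 allograft clusters (98 cells of preSC_CracdKO, 935 of preSC_WT).

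UMIs were summed per class and library and given as CPM, with exact Poisson intervals, and ratios with exact conditional binomial intervals, at 95%; molecules are counted once, but intervals cover counting error only. Named genes are the 9 members, list genes called in a comparison (at most 5 per list) and the 2 most similar genes. The rule was tested on simulated counts. Alternatives were median-ratio scaling, no level minimum, 1 CPM added, a 2-fold threshold, means of per-cell CPM, doublets kept, at most 10% mitochondrial UMIs, Leiden resolution 0.5, and equal weight of clusters or classes; their effects are in the closing section. The list of other kinases and factors is not reported here.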

Additional observations from a re-analysis of the deposited data

Results flagged for a closer look

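Ifngr2 in tumour cells lay on opposite sides of 1 in the pairs, with a ratio of 0.844 for CRPR2 over RPR2 and 1.84 for the library labelled preSC_CracdKO over that labelled preSC_WT. The difference between the pairs was not tested, and only the allograft ratio passed the 1.5-fold rule.

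A cluster of 496 CRPR2 cells, with 1 cell of RPR2, took no name and entered no comparison above. Led by Tm4sf1, Spp1 and S100a6, it held neuroendocrine markers at a summed 409 CPM, against 16930 CPM in tumour cells of CRPR2. The cluster had a median of 13336 UMIs per cell, against 3371 in those tumour cells, and the part of this depth in its values was not tested. In it Jak1 stood at 104 CPM, Jak2 at 41.2, Ifngr1 at 45.7, Ifngr2 at 52.8 and Ifnar2 at 85.9 CPM, against 59.6, 25.7, 23.1, 12.0 and 40.4 CPM in the tumour cells of CRPR2. Ifngr2 was thus 4.41-fold higher. Stat3 went the other way, at 33.9 CPM in the unnamed cluster and 113 CPM in tumour cells, as did Stat2 at 5.61 and 13.4 CPM.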

How the results depend on the processing

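Counts of members past the fold were recomputed under the listed alternatives. Adding the unnamed clusters, a choice made after seeing the data, gave 2 members higher in lung tumour cells (main 0), with 496 CRPR2 cells added. At 2-fold the counts were 0 in lung immune (main 2), 4 in allograft tumour (main 7) and 2 in allograft stromal cells (main 4). With classes weighted alike they were 0 in lung immune and 3 in allograft immune cells (main 0), and with shared clusters weighted alike 4 in allograft tumour cells (4 higher and 0 lower of 5 that passed), where Ifngr2 turned to a log2 ratio of -0.38 on some of the 209 preSC_WT cells in preSC_CracdKO clusters. In lung immune cells, Tyk2 turned to -0.16 and Ifngr1 to 0.0609 with classes weighted alike, and Ifngr1 to 0.084 without the clusters rich in Rag1, Dntt or Ptcra. Jak1 in lung T-cell-like cells turned to -0.25 without those clusters and -0.13 in the cluster held by both libraries, both added after seeing the data. Jak1 in allograft tumour cells stayed between 4.10 and 4.60 on the log2 scale under the other alternatives and was 1.00 with shared clusters weighted alike. Median-ratio scaling moved log2 ratios of all genes by over 0.1 also in lung T-cell-like (-0.369), plasma-like (-0.237) and club-like cells (-0.136) and in allograft tumour (-0.124), stromal (0.125) and T-cell-like cells (-0.192). Over all members and the settings that can move a ratio, thus without the 2-fold threshold and the dropped level minimum, 746 values moved by less than their counting interval, 79 by more, and 6 changed direction after a call. Lower levels in 49 and 47 stromal cells rest on few UMIs. No paired analysis was possible because each group has 1 library.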
